A study of Mus musculus with 33 samples.

Results

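Granulosa cells are the somatic cells that enclose the oocyte in the ovarian follicle, and 10 of the genes that mark them were followed here through single oocytes: *Inha*, *Inhba*, *Inhbb*, *Fst*, *Amh*, *Amhr2*, *Foxl2*, *Wt1*, *Fshr* and *Serpine2*. The members were chosen by symbol, and all 10 of 10 were found among the 35321 genes of the deposited count table. The question put to the data was which libraries carry RNA of these genes and which of the genes are present in the oocyte library whatever the other markers do. In 8 of the 10 the highest value was in the same library, oocyte 15, and *Fshr* and *Serpine2* did not share this.

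Granulosa cells signal to the oocyte and to the pituitary through members of the TGF-beta family. *Inha* encodes the alpha subunit of inhibin, which pairs with the beta subunits from *Inhba* or *Inhbb*, and pairs of beta subunits make activin, which follistatin (*Fst*) binds and neutralizes. Anti-Müllerian hormone (*Amh*) is made by granulosa cells of growing follicles and acts through its own type II receptor (*Amhr2*). *Foxl2* and *Wt1* encode transcription factors of the granulosa lineage, *Fshr* encodes the receptor for follicle-stimulating hormone, and *Serpine2* encodes protease nexin-1, a secreted inhibitor of serine proteases such as the plasminogen activators. Granulosa cells stay attached to the oocyte through projections that cross the zona pellucida.

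The study collected germinal vesicle oocytes from 3-week-old females with an *Nlrp5* null allele made by CRISPR/Cas9, a frameshift carried in the germ line and not limited to the oocyte. There were 10 *Nlrp5*+/+ oocytes, 16 *Nlrp5*+/- and 7 *Nlrp5*-/-. Heterozygous and homozygous females were littermates, whereas +/+ females usually came from the originating C57BL6/Babr colony, so that in comparisons with +/+ genotype and colony cannot be told apart. Ovaries were digested with enzymes, oocytes were washed by mouth pipette, and the polyadenylated RNA of each was separated from its DNA and amplified. The study staged oocytes from their expression as NSN (non-surrounded nucleolus) or SN (surrounded nucleolus, the later stage). The +/+ oocytes were 4 NSN and 6 SN, the +/- oocytes 9 NSN and 7 SN, and the -/- oocytes 4 NSN and 2 SN. Oocyte 15, which is -/-, has no stage and is shown apart. Oocytes are named by the number in their titles. The labels name no mouse, so each genotype and stage counts as 1 sample, no test was possible, and no p-value is given. Ranges describe the spread between oocytes.

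Depth ran from 4223595 to 15573360 counts on genes per oocyte, and values are given as counts or as counts per 1000000 counts of the library (CPM). A count of 0 allows up to 3 counts, which is 0.193 to 0.710 CPM over the libraries. *Nlrp5* itself was at 1295 to 3898 CPM in +/+, 630 to 1736 in +/- and 176 to 328 in -/- oocytes, and no -/- oocyte overlapped the other genotypes. The first library index was shared within 10 sets of 1 to 4 oocytes, each of 1 genotype. Oocytes 13, 14 and 15 were 1 set, oocytes 29, 30 and 31 another, and oocyte 7 was alone.

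Promoter sequences show how unlike the members are at their start sites, and 3 are given for the gene that leads the set (*Inha*), the gene in every library (*Serpine2*) and the gene that went its own way (*Fshr*). Sequences came from RefSeq (GRCm38.p6) for 7 of the 10 members, each with 250 bases before and 50 after the start, and none was held for *Amh*, *Fst* and *Wt1*. Capitals mark each match, on either strand, to 8 short motifs: the TATA box TATAAA, the GC box GGGCGG, the E-box CACGTG, the core of the cyclic AMP response element TGACG, the NR5A (SF-1) site AAGGTCA, the GATA site AGATAA, the forkhead core TAAACA and the CCAAT box CCAAT.
Inha, chr1:75507359-75507658, plus strand: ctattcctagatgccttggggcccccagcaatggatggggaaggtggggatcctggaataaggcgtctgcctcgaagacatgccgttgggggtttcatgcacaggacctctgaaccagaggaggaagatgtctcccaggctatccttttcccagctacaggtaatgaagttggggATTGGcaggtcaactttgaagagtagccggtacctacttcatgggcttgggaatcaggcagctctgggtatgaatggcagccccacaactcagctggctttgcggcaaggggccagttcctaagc
Fshr, chr17:89200626-89200925, minus strand: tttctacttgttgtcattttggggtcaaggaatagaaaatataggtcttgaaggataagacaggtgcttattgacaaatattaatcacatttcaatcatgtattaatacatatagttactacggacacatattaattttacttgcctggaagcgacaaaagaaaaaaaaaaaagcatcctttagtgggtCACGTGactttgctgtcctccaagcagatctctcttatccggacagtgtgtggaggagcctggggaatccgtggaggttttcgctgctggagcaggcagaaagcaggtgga
Serpine2, chr1:79858616-79858915, minus strand: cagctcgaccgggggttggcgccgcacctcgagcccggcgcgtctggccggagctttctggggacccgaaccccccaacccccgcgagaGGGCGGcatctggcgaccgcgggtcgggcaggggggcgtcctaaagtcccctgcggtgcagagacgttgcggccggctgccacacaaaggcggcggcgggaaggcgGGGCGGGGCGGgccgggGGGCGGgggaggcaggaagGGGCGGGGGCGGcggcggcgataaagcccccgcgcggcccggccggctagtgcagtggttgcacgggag
The *Serpine2* window held 6 GC boxes, a pair of which share a base, and 41 CpG, at percentile 96.5 of 32851 promoters of this length, and its G+C content was 77.7%. A GC box is in 35.7% of all those promoters. The *Fshr* window was 40.7% G+C with 6 CpG and held 1 E-box, which reads the same on both strands, at bases -61 to -56, and 7.15% of all promoters hold one. The *Inha* window was 55.3% G+C with 5 CpG and held 1 CCAAT box, on the opposite strand, as 37.4% of promoters do. The RefSeq starts of *Inha* and *Serpine2* in this table lie inside the spans that the count table gives these genes. The SF-1 site, found in 4.72% of promoters, was matched in *Amhr2* alone among the 7 members. A match of letters is a description of the window and no evidence of binding.

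The members fell into 3 patterns over the 33 oocytes. *Serpine2* had at least 800 counts in every library. *Inha*, *Inhba*, *Inhbb*, *Fst*, *Amh*, *Amhr2*, *Foxl2* and *Wt1* were highest in oocyte 15. Of these *Inha* had at least 5 counts in 26 libraries and *Inhba* in 17, and the other 6 in 7 to 12. *Fshr* was scattered at low counts through all genotypes. Oocytes 7, 13, 14 and 15, all -/-, hold 10.7% of the counts on all genes. They hold 92.7% of the counts of *Inhbb*, 88.9% of *Fst*, 87.4% of *Inha*, 87.1% of *Foxl2*, 82.2% of *Amh*, 81.5% of *Amhr2*, 72.7% of *Inhba* and 64.7% of *Wt1*, against 21.0% for *Fshr* and 9.47% for *Serpine2*. These libraries were singled out after their values were seen.

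**Figure D1:**
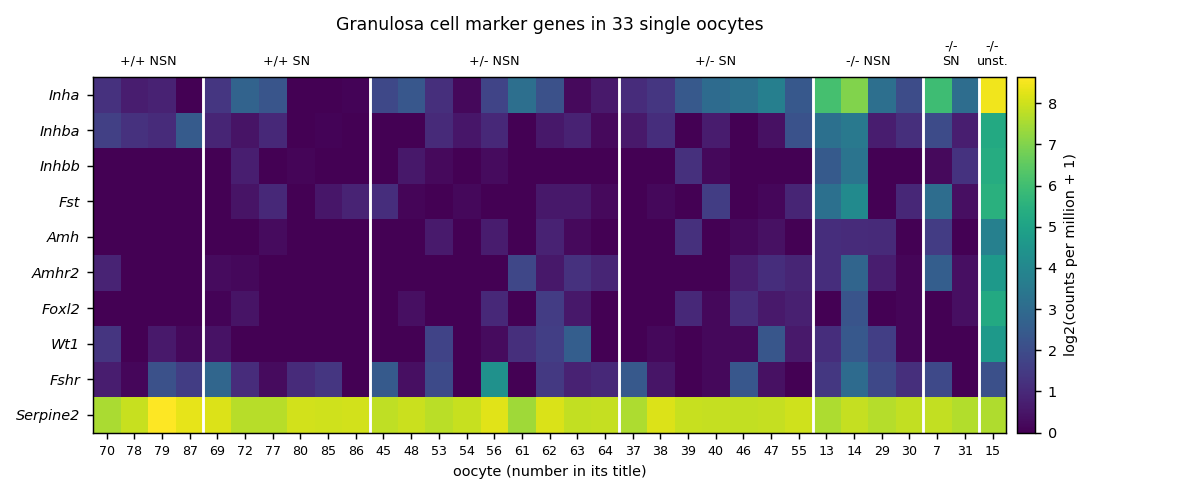
Level of the 10 markers (rows) in 33 oocytes (columns, grouped by genotype and stage; unst., unstaged), as log2(CPM + 1). *Serpine2* is bright in every column, *Fshr* is scattered, and each of the other 8 rows is brightest in the -/- oocyte 15.

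Between 3 and 10 of the 10 members had at least 1 count in an oocyte, with a median of 7. The median was 4.5 in +/+ oocytes (range 3 to 8), 6.5 in +/- (4 to 9) and 8 in the 6 staged -/- oocytes (7 to 10), and the ranges overlap. Oocytes 14 and 15 carried all 10. The order of the medians was also there at equal depth, with every library thinned to 4000000 counts, at 3.5, 5.5 and 7.

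*Serpine2* (chromosome 1, 79794197 to 79861180, minus strand, ENSMUSG00000026249) was in every library at a like level. It had 800 to 4322 counts in all 33 oocytes. In +/+ NSN oocytes it was at 186, 240, 320 and 398 CPM, and in +/+ SN oocytes at 207 to 288 with a median of 260. In +/- oocytes the medians were 233 CPM at NSN (167 to 305, n = 9) and 235 at SN (192 to 288, n = 7). In -/- oocytes it was at 189, 202, 232 and 235 CPM at NSN and at 198 and 231 at SN. All groups overlap. Oocyte 15, the richest in the other markers, had 196 CPM, which is 0.493 times the highest other oocyte. The coefficient of variation over the 32 staged oocytes was 18.8%, against 164% to 311% for the other 9 members.

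*Plat*, which encodes tissue plasminogen activator, a protease that protease nexin-1 inhibits, was also in every oocyte, at 848 to 3398 CPM. The genes most like *Serpine2* over the 33 oocytes were *Ica1* (r = 0.74), *Atp10b* (0.73) and *Nsrp1* (0.70), with r of 0.73, 0.76 and 0.69 over the 32 staged. None is in a marker list used here.

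*Inha* (chromosome 1, 75507077 to 75510366, plus strand, ENSMUSG00000032968) had the highest values of the 8 markers that peak in oocyte 15. It had no count in 3 of 10 +/+ oocytes. The 4 +/+ NSN oocytes held 0, 5, 8 and 15 counts (0 to 1.36 CPM), and the 6 SN oocytes 0 to 45 counts with a median of 0.836 CPM and a maximum of 5.78. In +/- oocytes it was in all 16, at a median of 2.38 CPM at NSN (0.148 to 7.82) and 4.28 at SN (1.15 to 12.2), and both ranges overlap those of +/+. The -/- NSN oocytes 30, 29, 13 and 14 held 3.07, 7.96, 66.5 and 127 CPM, and the SN oocytes 31 and 7 held 7.53 and 61.4 CPM. All 6 lie above every +/+ oocyte of their stage. Oocytes 30 and 31 are within the range of +/- oocytes of their stage, and oocyte 29 is just above it. Oocyte 15 was at 346 CPM (3225 counts, 95% Poisson interval 334 to 358 CPM, for counting error only), which is 2.73 times oocyte 14.

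**Figure D2:**
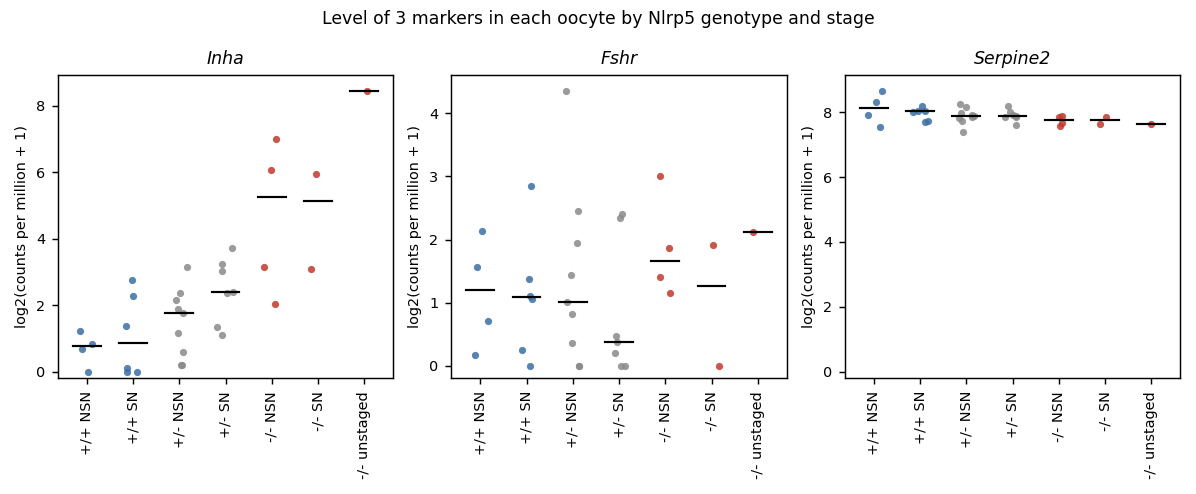
*Inha*, *Fshr* and *Serpine2* in each oocyte (points) by genotype and stage, as log2(CPM + 1), with a line at the median. *Inha* is highest in oocyte 15 at 346 CPM, *Fshr* is highest in a +/- NSN oocyte at 19.4 CPM, and *Serpine2* lies between 167 and 398 CPM throughout.

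The beta subunits were both highest in oocytes 15, 14 and 13, in that order, and differed in +/+ NSN oocytes. *Inhbb* (chromosome 1, 119415465 to 119422248, minus strand, ENSMUSG00000037035) was absent from all 4 +/+ NSN oocytes and had 1 and 5 counts in 2 of the 6 SN oocytes. It was in 5 of 16 +/- oocytes, at 1.29 CPM or less. In -/- oocytes it had 19 counts in oocyte 13, 94 in 14, 15 in 31, 1 in 7 and none in 29 and 30. Oocyte 15 had 367 counts, or 39.4 CPM.

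*Inhba* (chromosome 13, 16011851 to 16031621, plus strand, ENSMUSG00000041324) was present in more +/+ oocytes. The 4 +/+ NSN oocytes had 11, 11, 23 and 35 counts, whereas the 9 +/- NSN oocytes had 0 to 6. No +/- NSN oocyte reached the lowest +/+ NSN one (log2 fold change -2.02, mean normalized count 7.16). The +/+ NSN libraries had the higher median depth, however. In CPM the highest +/- NSN oocyte was only just below the lowest +/+ NSN one. Among 15084 genes at a mean of 5 or more normalized counts, 0.265% had every +/- NSN oocyte below every +/+ one. *Inhba* reached that mean only through the +/+ oocytes. The +/- NSN oocytes were not low in *Inha*, and *Inha* had no count in the +/+ oocyte with 35 counts of *Inhba*. In +/+ SN oocytes *Inhba* had 0 to 13 counts. The -/- oocytes held 3, 14, 34 and 106 counts at NSN (oocytes 29, 30, 13 and 14) and 7 and 17 at SN (31 and 7). Oocyte 15 held 343, or 36.8 CPM. *Gm48444* lies antisense over 6240 bp of *Inhba* with at most 8 counts in a library, and the strand setting of the counting is not given in the sources used here.

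Follistatin followed *Inha* in the richest libraries. *Fst* (chromosome 13, 114452290 to 114458951, minus strand, ENSMUSG00000021765) had no count in the 4 +/+ NSN oocytes and 0 to 11 in the 6 SN oocytes. In +/- oocytes it was in 10 of 16, at 1.93 CPM or less. In -/- NSN oocytes it was at 0 in oocyte 29, 0.964 CPM in 30, 8.05 in 13 and 16.6 in 14. At SN it was at 0.282 CPM in 31 and 7.48 in 7. Oocyte 15 had 43.8 CPM.

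The AMH ligand and receptor were both rare. *Amh* (chromosome 10, 80805243 to 80807648, plus strand, ENSMUSG00000035262) had 1 count in 1 of 10 +/+ oocytes and was in 7 of 16 +/- oocytes at 9 counts or fewer. The -/- oocytes 13, 14, 29 and 7 had 5, 11, 5 and 11 counts, oocytes 30 and 31 none, and oocyte 15 had 116 (12.5 CPM). *Amhr2* (chromosome 15, 102445367 to 102454633, plus strand, ENSMUSG00000023047) was in 3 of 10 +/+ oocytes at 9 counts or fewer and in 7 of 16 +/- oocytes, with the most in oocyte 61 (15 counts). Every -/- oocyte had it, at 1, 3, 5 and 62 counts at NSN (30, 29, 13 and 14), 3 and 29 at SN (31 and 7) and 230 in oocyte 15 (24.7 CPM). Oocyte 7 thus exceeded oocyte 13 in CPM of *Amh* and *Amhr2* but not in *Inhbb*.

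The 2 lineage factors were low in most libraries. *Foxl2* (chromosome 9, 98955288 to 98958543, plus strand, ENSMUSG00000050397) was in 2 of 10 +/+ oocytes (1 and 3 counts) and 9 of 16 +/- oocytes (12 counts or fewer). It had 39 counts in oocyte 14 but none in oocytes 7, 13 and 29, 1 in 30 and 3 in 31. Oocyte 15 had 345 (37.0 CPM), 9.80 times oocyte 14, the widest gap of the 10 members. *Foxl2os*, a gene on the opposite strand that overlaps its start by 12 bp, had 39 counts in oocyte 14 and 81 in oocyte 15. *Wt1* (chromosome 2, 105126529 to 105173616, plus strand, ENSMUSG00000016458) was in 4 of 10 +/+ oocytes, with up to 17 counts. Its highest staged libraries were the +/- oocytes 63 (33 counts, 5.03 CPM) and 47 (39 counts, 3.91 CPM) and the -/- oocyte 14 (44 counts, 4.26 CPM). Oocytes 7 and 31 had none, oocyte 13 had 5 and oocyte 15 had 228 (24.5 CPM).

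*Fshr* (chromosome 17, 88984952 to 89200675, minus strand, ENSMUSG00000032937) did not go with the others. It was in 9 of 10 +/+ oocytes, 12 of 16 +/- oocytes and 5 of the 6 staged -/- oocytes. The highest value was 98 counts (19.4 CPM) in the +/- NSN oocyte 56, followed by 7.07 CPM in the -/- oocyte 14 and 6.20 CPM (93 counts) in the +/+ SN oocyte 69. Oocyte 56 had 12 counts of *Inha* and oocyte 69 had 24. Oocyte 15 had 31 counts, or 3.33 CPM, which is within the range of +/+ oocytes and 0.171 times oocyte 56. The medians were 1.30 CPM in +/+ NSN, 1.02 in +/- NSN, 0.301 in +/- SN and 2.16 in -/- NSN oocytes, and all ranges overlap. Its correlation with the other 9 members ran from 0.19 to 0.30 over the 33 oocytes. The genes most like it were *Nfkbib* (r = 0.70), *Rnf5* (0.63) and *Wdr73* (0.62), which are not granulosa markers of the lists used here.

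The 8 members other than *Serpine2* and *Fshr*, a grouping made after their values were seen, summed to 0.0980 to 7.71 CPM in +/+ oocytes, 0.740 to 18.5 in +/-, and 5.52 to 178 in the staged -/- oocytes. Their make-up was compared in the 6 libraries with at least 100 counts on them. *Inha* took 61.3% of the counts in oocyte 15 (95% Wilson interval 60.0 to 62.6), 71.3% in 14 (69.2 to 73.3), 73.4% in 13 (68.7 to 77.5), 77.8% in 7 (73.7 to 81.3), 72.1% in 31 (63.1 to 79.6) and 65.9% in 47 (58.9 to 72.4). *Fst* took 7.75%, 9.32%, 8.88% and 9.47% in oocytes 15, 14, 13 and 7, with overlapping intervals. *Inhbb* took 6.97% in oocyte 15 (6.32 to 7.69) and 5.13% in 14 (4.21 to 6.23) but 0.220% in 7 (0.0389 to 1.24). Its share was highest in oocyte 31, at 13.5% (8.36 to 21.1). *Foxl2* took 6.56% in oocyte 15 (5.92 to 7.26), 2.13% in 14 (1.56 to 2.89) and none in 13 and 7, where 0 counts leave an upper limit of 0.993% and 0.839%. *Wt1* took 21.1% in oocyte 47 (15.8 to 27.5) against 4.33% in 15. In oocyte 31 *Fst* took 2.70% (0.923 to 7.65), and in 47 it took 0.541% (0.0955 to 3.00). The shares of *Inha*, *Fst*, *Foxl2*, *Inhbb* and *Wt1* thus each differed between some of these libraries beyond counting error, an error that does not cover amplification from 1 cell.

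**Figure D3:**
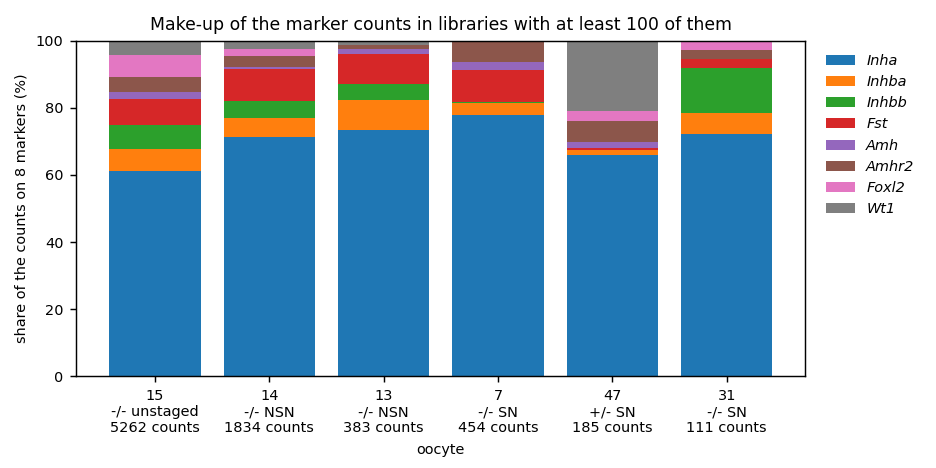
Share of the counts on 8 markers (stacked bars, %) taken by each marker in the 6 oocytes with at least 100 such counts, with genotype, stage and the number of counts under each bar. *Inha* takes 61.3% to 77.8%, *Fst* is alike in oocytes 15, 14, 13 and 7, and *Wt1* stands out in oocyte 47.

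The members were set beside 12 other granulosa genes, listed apart from them. Of these, 6 (*Gja1*, *Hsd17b1*, *Nr5a1*, *Npr2*, *Slc38a3* and *Gatm*) had a mean normalized count under 50 in +/+ oocytes. The other 6, *Esr2* and *Cyp19a1* among them, were in every oocyte, and took most of the sum of the 12. With that sum over the 33 oocytes *Inha* had r = 0.67 (Spearman's rho 0.42), and 0.15 over the 29 oocytes other than 7, 13, 14 and 15. *Inhba* had r = 0.63 and rho 0.02. *Cyp19a1*, the aromatase, was at 31.5 CPM in oocyte 15 against a +/+ median of 59.0. The 6 low genes were therefore also summed, a choice made after the values were seen. Their sum was 0.261 to 5.14 CPM in +/+ oocytes, 0.848 to 25.5 in +/-, and 69.6, 131, 5.92 and 5.17 CPM in the -/- NSN oocytes 13, 14, 29 and 30. It was 31.2 and 4.42 CPM in the SN oocytes 7 and 31 and 382 in oocyte 15. Pearson's r of log2(CPM + 1) with this sum over the 33 oocytes was 0.89 for *Amhr2*, 0.89 for *Inha*, 0.82 for *Fst*, 0.79 for *Inhbb*, 0.77 for *Amh*, 0.74 for *Wt1*, 0.71 for *Foxl2* and 0.68 for *Inhba*, against 0.20 for *Fshr* and -0.44 for *Serpine2*. The points of such a correlation share libraries, index sets and zeros, and oocyte 15 carries much of it. Without oocytes 14 and 15, the farthest from the median, r was 0.78 for *Inha* and 0.77 for *Amhr2* but 0.30 for *Inhba* and 0.24 for *Foxl2*. By ranks the relation was looser, with rho of 0.77 for *Inha* and *Amhr2*, 0.70 for *Amh*, 0.54 for *Wt1*, 0.53 for *Foxl2*, 0.41 for *Fst*, 0.35 for *Inhbb* and 0.26 for *Inhba*. Over the 29 oocytes other than 7, 13, 14 and 15, r was 0.74 for *Amhr2*, 0.62 for *Wt1*, 0.59 for *Inha*, 0.48 for *Foxl2* and 0.32 for *Amh*. It was 0.07 for *Inhbb*, 0.05 for *Fst* and -0.18 for *Inhba*.

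*Gja1*, which encodes connexin 43, the gap junction protein between granulosa cells, was the gene most like *Inha* of 13896 (r = 0.93, and 0.90 over the 32 staged oocytes). It was at 1728, 743, 207 and 82 counts in oocytes 15, 14, 13 and 7, or 14.3 to 185.5 CPM, and at 2.57 CPM or less in +/+ oocytes. The next were *Slc38a5* (0.89), *Scd2* (0.88), *Obsl1* (0.87), *Serpinh1* (0.87), *Ldha* (0.86), *Hsd17b1* (0.85), *Acsbg1* (0.85), *Tceal9* (0.85) and *Mybpc3* (0.84). Over the 29 oocytes other than 7, 13, 14 and 15, *Inha* and *Gja1* still had r = 0.74, whereas *Fst* with *Gja1* had -0.03 and *Inhba* with *Gja1* -0.11. The 3 genes most like each remaining member, with r over the 33 and then the 32 oocytes, had lower r without oocyte 15 in each case. For *Inhba* they were *St3gal4* (0.85, 0.72), *Mybpc3* (0.84, 0.72) and *8030451A03Rik* (0.83, 0.69). For *Inhbb* they were *Nrn1* (0.96, 0.90), *Gprasp2* (0.94, 0.84) and *Aif1l* (0.93, 0.84). For *Fst* they were *Mybpc3* (0.93, 0.87), *Evc2* (0.92, 0.86) and *Hsd17b1* (0.92, 0.87). *Mybpc3* was thus near the top for *Inha*, *Inhba* and *Fst*. For *Amhr2* they were *Serpinh1* (0.91, 0.83), *Obsl1* (0.90, 0.82) and *Apoa4* (0.90, 0.80). For *Foxl2* they were *Eya2* (0.90, 0.67), *Nrn1* (0.89, 0.73) and *Nupr1* (0.89, 0.67). For *Wt1* they were *Maged2* (0.84, 0.78), *S100a10* (0.84, 0.70) and *Slc40a1* (0.83, 0.69). *Amh* was too low to be ranked. *Fst*, *Wt1*, *Amhr2*, *Inhbb* and *Foxl2* reached the mean of 10 needed for ranking only through oocyte 15. Over the 32 staged oocytes their means were 9.75, 6.08, 5.30, 4.23 and 2.73.

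**Figure D4:**
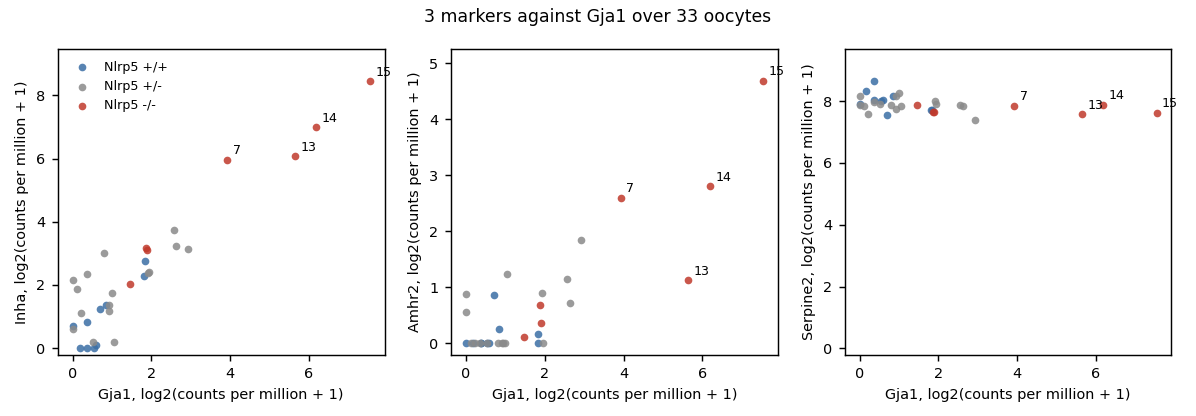
*Inha*, *Amhr2* and *Serpine2* (y axes) against *Gja1* (x axes) over 33 oocytes, all as log2(CPM + 1), coloured by genotype with oocytes 7, 13, 14 and 15 numbered. *Inha* is higher where *Gja1* is higher (r = 0.93), as is *Amhr2* (r = 0.85), and *Serpine2* is not (r = -0.41).

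Genotypes were compared within a stage on counts scaled to like depth (normalized counts). At NSN 6 of 10 members reached a mean of 10 or more, and 5 of them were at least 2-fold higher in -/- than in +/+ oocytes, against 5.2% of the 13930 genes tested. These were *Inha* (mean normalized count 390 v 5.38, log2 fold change 5.94), *Fst* (48.6 v 0), *Inhbb* (25.8 v 0), *Inhba* (log2 fold change 1.13) and *Fshr* (24.2 v 11.6, 1.00). *Fst* was at least 19.0-fold and *Inhbb* at least 10.1-fold higher, taking 3 counts in each +/+ library as the floor. *Inha*, *Fst* and *Inhbb* reached the mean of 10 only through the -/- oocytes, so the filter itself favours members that are higher and the count is a description. In oocyte 14 alone were 171 of the 216 counts of *Fst* and 94 of the 113 of *Inhbb* in -/- NSN oocytes. *Inha* alone was higher in every -/- oocyte than in every +/+ one, as were 3.85% of 15426 genes with a mean of at least 5. None was at least 2-fold lower with sufficient counts, against 3.22% of genes. *Serpine2* was at -0.38. The count turned on oocytes 14 and 13. Without oocyte 14, 2 members remained past the fold and the mean (*Inha* at 5.06, and *Fst*), and without both *Inha* alone did (2.86), while *Inhba* was at -1.13. *Fshr* was at 0.35 without oocyte 14 and 1.69 without the +/+ oocyte 79. Over all 10 members, with no filter, the median log2 fold change was 2.76, or 1.53 with the 4 genes absent from +/+ NSN oocytes at their bounds, against 0.02 over the 23731 genes with a count.

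At SN, 2 of 4 members with sufficient counts were at least 2-fold higher in -/- oocytes, against 4.39% of 13750 genes. They were *Inha* (log2 fold change 4.08) and *Fst* (36.2 v 4.16, 2.85). *Fst* reached the mean of 10 through oocyte 7 alone. *Fshr* was at -0.33 and *Serpine2* at -0.26. *Inha* and *Amhr2* (24.8 v 0.526) were higher in both -/- SN oocytes than in all 6 of +/+, as were 7.02% of 15217 genes with a mean of at least 5. *Amhr2* reached that mean only through the -/- oocytes. Without oocyte 7, *Inha* was at 1.91 and *Fst* at -0.52, with 1 -/- oocyte left in the comparison, and without oocyte 31 they were at 4.91 and 3.77. None of the 4 was at least 2-fold lower, against 6.48% of genes.

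In +/- oocytes *Inha* differed by less than in -/- oocytes, and *Fshr* and *Inhba* at NSN did not (1.14 v 1.00, and -2.02 v 1.13). These comparisons use the same +/+ oocytes as those above. At NSN 2 of 3 members with sufficient counts were at least 2-fold higher than in +/+, *Inha* (18.3 v 5.02, 1.68) and *Fshr* (25.1 v 10.8, 1.14), against 1.92% of 13664 genes. *Inha* reached the mean of 10 here only through the +/- oocytes. *Fshr* was past the fold through oocyte 56, and without it the value was -0.08, and 1.84 without the +/+ oocyte 79. The count was also 1 without the +/+ oocyte 70 or 78. At SN 1 of 3 was, *Inha* (46.3 v 15.8, 1.49), against 1.23% of 13442 genes, with *Inha* at 2.18 without the +/+ oocyte 72. *Inha* overlapped between +/- and +/+ at both stages. No member had every +/- oocyte above every +/+ one at either stage, against 0.166% of genes at NSN and 0.0268% at SN, and none lay below in this way at SN, against 0.047%. *Serpine2* was at -0.23 at NSN and -0.07 at SN, and its groups overlapped in all 4 comparisons. No member with sufficient counts was at least 2-fold lower in +/- oocytes, against 1.08% of genes at NSN and 0.848% at SN.

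**Figure D5:**
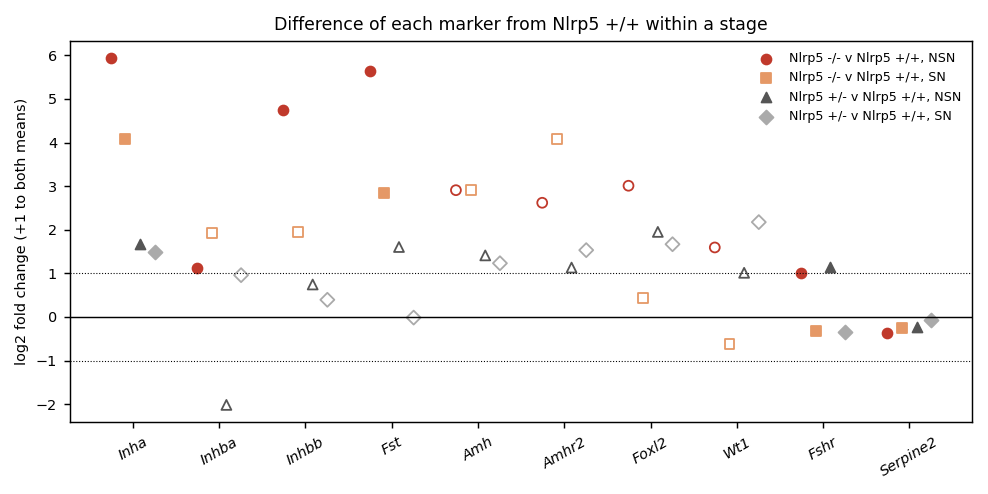
Log2 fold change (y axis, 1 added to both means) of each marker in 4 comparisons with +/+ oocytes of the same stage, with dotted lines at 2-fold. Filled symbols have a mean of 10 or more normalized counts, and points at or above the upper dotted line with a filled symbol are the members counted as at least 2-fold higher.

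Markers of other ovarian cells moved with the granulosa markers in part, and their part in these differences was not tested. Of 8 stroma markers 4 were higher than in any +/+ oocyte in oocyte 14, 1 in 13, none in 7 and 7 in 15, with sums of 40.4, 8.29, 7.83 and 163 CPM against 0.694 to 15.8 in +/+. Of 8 theca and interstitial markers 7, 2, 3 and 7 were, with sums of 55.8, 18.9, 18.3 and 126 CPM against 6.01 to 22.3. Of 6 blood markers 4, 2, 0 and 5 were, with sums of 26.4, 4.97, 0.696 and 143 CPM against 0 to 8.40. Among them *Ptprc*, the pan-leukocyte marker, was at 0 in all 4. *Tyrobp*, of the same list, was at 0.484, 0, 0.174 and 1.07 CPM, against at most 0.200 in +/+ oocytes. Of 5 surface epithelium markers 3, 0, 1 and 4 were, with sums of 15.2, 3.79, 10.1 and 38.4 CPM against 0.914 to 5.03. Some of the markers counted in these lists were at low counts or little above +/+. In oocyte 7 *Insl3* was at 0.870 CPM (highest +/+ 0.584) and *Fdxr* at 6.79 (6.66). In oocyte 14 *Krt19* was at 0.484 CPM (0.453). Endothelial markers summed to 110, 92.8, 99.9 and 80.8 CPM in oocytes 14, 13, 7 and 15, against 52.8 to 99.2 in +/+, and 1, 1, 1 and 0 of 5 were above every +/+ oocyte. Most of each sum was *Pecam1*, which was in every oocyte, at 71.6, 77.4, 71.5 and 56.6 CPM in these and at 45.4 to 74.2 in +/+. *Cdh5* had no count in oocytes 14, 13 and 7 and 9 counts in 15. The 12 oocyte markers summed to 17593 CPM in oocyte 15, below the 21542 to 32005 CPM of the other 32, and to 25408 to 28317 CPM in oocytes 7, 13 and 14. Over all 13896 genes with a mean of at least 10, 25.8% were above every +/+ oocyte in oocyte 15, 22.9% in 14, 12.5% in 13 and 15.1% in 7. Among the 10 members 8, 9, 6 and 4 were. Mitochondrial genes took 0.0175% of counts in oocyte 15 and 0.0667% in 7, below the 0.101% to 0.394% of +/+ oocytes, and 0.152% and 0.332% in 14 and 13. The most genes with a count were in oocytes 15 (19735) and 14 (19395), against 16324 to 18616 in +/+ oocytes and 16709 and 16741 in 13 and 7. Markers of other cells were not high in the same libraries throughout. In oocyte 30, with 0 of 10 members above every +/+ oocyte, 3 of 6 blood and 3 of 5 surface epithelium markers were. In oocyte 31, with 2 members, 4 of 6 blood and 1 of 5 surface epithelium markers were. In oocyte 29, with 3 members, 1 of 6 blood and 0 of 5 surface epithelium markers were. The shares over all genes with a mean of at least 10 were 9.93%, 8.20% and 10.5% in oocytes 30, 31 and 29. In the -/- comparisons, with sufficient counts, 4 of 4 stroma markers at NSN and 3 of 4 at SN were at least 2-fold higher (median log2 fold change 2.27 and 1.29). So were 2 of 4 theca and interstitial markers at NSN and 1 of 3 at SN, 2 of 2 and 1 of 2 blood markers, and 1 of 1 surface epithelium markers at each stage. Of 4 endothelial markers 1 was higher at NSN and 1 lower at SN. Over all genes 5.2% were higher and 3.22% lower at NSN, and 4.39% and 6.48% at SN. Markers of other cells also differed in +/- oocytes, where with sufficient counts 3 of 4 stroma markers at NSN and 3 of 5 at SN were at least 2-fold higher (median log2 fold change 1.65 and 1.30). So were 2 of 5 theca and interstitial markers at NSN and 2 of 4 at SN (medians 0.98 and 1.11), with 1 of the 5 at least 2-fold lower at NSN, and 2 of 2 blood markers at SN (1.43). Over all genes 1.92% were higher and 1.08% lower at NSN, and 1.23% and 0.848% at SN. Markers with few counts in +/+ oocytes can reach the mean of 10 through the other genotype alone, so these counts too are a description. Over the +/+ oocytes the mean normalized count was 5.50 for *Col1a2*, 9.13 for *Pdgfra*, 9.66 for *Acta2* and 6.63 for *Hba-a1*. It was above 10 for *Dcn* (19.5), *Col3a1* (10.9) and *Hbb-bs* (10.3).

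The high values also differed between index sets of 1 genotype. Each set holds 1 genotype, so sets and genotypes cannot be told apart in comparisons between genotypes, but the -/- oocytes are in 3 sets. The set of oocytes 13, 14 and 15 held 66.5 to 346 CPM of *Inha*, the set of 29, 30 and 31 held 3.07 to 7.96, and oocyte 7 held 61.4. The 4 sets of +/- oocytes reached 4.19 to 12.2 CPM and the 3 sets of +/+ oocytes 0.0725 to 5.78.

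The genes that receive these signals were counted from lists. Of 15 activin and inhibin pathway genes, 10 had sufficient counts at NSN in the -/- comparison and none was past 2-fold, with a median log2 fold change of -0.19. At SN 1 of 10 was higher (*Bambi*, a decoy receptor, 1.35, with overlap) and 1 lower (*Acvr2a*, an activin type II receptor, -1.71, with no overlap), against 4.39% and 6.48% of all genes. For *Bambi* only 1 of the 2 -/- SN oocytes was above every +/+ SN oocyte, and oocyte 7 was at 2.61 CPM. *Smad3*, which carries the activin signal, was at 180 to 287 CPM in +/+ oocytes and at 251 in oocyte 15. Of 6 AMH pathway genes, *Acvr1*, a type I receptor, was lower in -/- oocytes at both stages (-2.71 at NSN and -4.52 at SN). It had 17, 61, 75 and 130 counts in the +/+ NSN oocytes against 0, 7, 13 and 15 in the -/- NSN oocytes, and 28 to 60 counts in +/+ SN oocytes against 0 and 1. The groups did not overlap at either stage (2.94% and 7.39% of genes with a mean of at least 5 lay below in this way). *Smad9* was lower at NSN (-1.04) and *Smad5* higher at SN (1.31), so that 2 of 6 were lower at NSN, against 3.22% of all genes, and 1 of 6 was higher and 1 lower at SN. In +/- oocytes no gene of these lists with sufficient counts was past 2-fold. Of 6 partners of *Serpine2* and 6 genes downstream of *Fshr*, none with sufficient counts was past 2-fold in any of the 4 comparisons. All 6 genes downstream of *Fshr* were above every +/+ oocyte in oocyte 15, as were 25.8% of all genes with a mean of at least 10.

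Per length of transcript, the order of levels between members changed from the oocyte with the most markers to the rest. Lengths were those of the canonical GENCODE vM39 transcript, except for *Inha*, for which the longest transcript not exceeding the span in the count table was used (3077 bp). Over the 32 staged oocytes the median level was 106 CPM per kb for *Serpine2* (75.6 to 180), 0.936 for *Inha* (0 to 41.2), 0.466 for *Fshr* (0 to 8.12) and 0.106 for *Inhba* (0 to 1.71). *Fst*, *Wt1* and *Amhr2* had medians of 0.0735, 0.0384 and 0.0221 CPM per kb, and *Inhbb*, *Amh* and *Foxl2* of 0. Below *Serpine2* the ranges overlap. In oocyte 15 the order was *Inha* (113 CPM per kb), *Serpine2* (88.7), *Fst* (23.2), *Amhr2* (12.5), *Foxl2* (11.4), *Inhbb* (9.16), *Amh* (7.46), *Wt1* (7.32), *Inhba* (6.12) and *Fshr* (1.39), so that *Inha* passed *Serpine2* in this library and *Fshr* came last.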

How the data were processed

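RNA of single oocytes of 3 *Nlrp5* genotypes was sequenced. Per the labels and methods the authors used Trim Galore for trimming and HISAT2 for alignment, left out libraries under 4000000 reads and deposited the raw read count of each gene in each oocyte. Gene positions are those of the table, whose column names carry GRCm38. Of 35373 entries 52 repeats of a gene identifier were left out.

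Genotype was taken from the labels and stage from the study's figures. Stage had been inferred there from expression and serves for description. The labels name no mouse, so no test was run and same-genotype oocytes counted as 1 sample. Counts were divided by median-of-ratios size factors within a comparison and averaged over oocytes, and log2 fold changes had a pseudocount of 1. A gene was called at 2-fold or more with a mean of 10 or more normalized counts. The calculation was tested on simulated data.

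The genes named are all 10 members, the 10 genes most like *Inha* and, for the other members above that mean, the 3 most like. Pathway genes are named where they passed 2-fold. Members, lists and settings were chosen with earlier results of these data known. Alternatives were total-count and TMM scaling (edgeR 4.0.16, R 4.3.3), medians, pooled sums, a pseudocount of 5, no filter or a mean of at least 100, no regard to stage, moving oocytes 55 and 61 between stages, and leaving out each oocyte. Python 3.11.15, numpy 2.4.6, pandas 2.3.3 and scipy 1.17.1 were used. Intervals at 95% cover counting error only. Of the other deposited files, 3 hold the authors' fold changes and p-values between genotypes and 1 holds read totals per library, and none was used.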

Additional observations from a re-analysis of the deposited data

Results flagged for a closer look

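Of 34 groups of a marker, genotype and stage with at least 10 counts in their highest oocyte, 8 had 1 oocyte far from the others by Dixon's ratio, where chance alone flags about 1 group in 20 if values are normally distributed, which low counts with many zeros are not. *Fshr* was at 6.20 CPM in the +/+ SN oocyte 69 against 0 to 1.61 in the other 5, and at 19.4 CPM in the +/- NSN oocyte 56 against 0 to 4.48 in the other 8. *Wt1* was at 5.03 CPM in the +/- NSN oocyte 63 (others 0 to 2.30) and at 3.91 CPM in the +/- SN oocyte 47 (others 0 to 0.524). *Foxl2* was at 3.78 CPM in the -/- NSN oocyte 14 (others 0 to 0.0876). *Inhba* was at 3.49 CPM in the +/- SN oocyte 55 (others 0 to 1.17), *Fst* at 1.17 CPM in the +/- NSN oocyte 45 (others 0 to 0.468), and *Amh* at 0 in the -/- NSN oocyte 30 (others 1.02 to 1.18).

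Oocyte 15 has no stage and enters no comparison within a stage, and it was above all 10 +/+ oocytes for 8 of the 10 members, as it was for 25.8% of 13896 genes with a mean of at least 10. The values were 346.3 CPM for *Inha*, 43.8 for *Fst*, 39.4 for *Inhbb*, 37.0 for *Foxl2*, 36.8 for *Inhba*, 24.7 for *Amhr2*, 24.5 for *Wt1* and 12.5 for *Amh*. The highest +/+ values were 5.78, 0.973, 0.643, 0.386, 4.57, 0.815, 1.54 and 0.195 CPM in the same order.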

How the results depend on the processing

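The number of members at least 2-fold higher in -/- NSN oocytes was 5. It was 3 with a pseudocount of 5 or without regard to stage and oocyte 15, 9 with no filter, 1 with a mean of at least 100, and 1 without oocytes 13 and 14, an alternative added after the data were seen. Leaving out each oocyte in turn gave 2 to 6, the lowest without oocyte 14. In -/- SN oocytes it was 2, and 6 with no filter, 0 with a mean of at least 100 and 7 without regard to stage but with oocyte 15, with 1 to 2 on leaving out each oocyte. In +/- NSN oocytes it was 2, and 1 with medians, pooled sums, a pseudocount of 5 or no regard to stage, 7 with no filter and 0 with a mean of at least 100, with 1 to 2 on leaving out each oocyte. In +/- SN oocytes it was 1, and 5 with no filter and 0 with a mean of at least 100, and 1 whichever oocyte was left out. The filter counts follow from which genes enter, and for the others the cause was not tested. Total-count and TMM scaling gave 5, 2, 2 and 1, as the main scaling did. Directions of called values that turned were *Inhba* (-1.13) and *Inhbb* (0) in -/- NSN oocytes without oocytes 13 and 14, *Fst* (-0.52) in -/- SN oocytes without oocyte 7, and *Fshr* in +/- NSN oocytes with medians (-0.20) and without oocyte 56 (-0.079). On leaving out each oocyte *Fst* in -/- SN oocytes ran from -0.52 to 3.77 and *Fshr* in +/- NSN oocytes from -0.079 to 1.84. The median number of members detected was 7, 5 with at least 5 counts and 6 after thinning. With the sum of 12 other granulosa markers, r of *Inha* was 0.67, 0.42 by Spearman's method, 0.47 over the 32 staged oocytes and 0.47 without the 2 farthest.

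No paired analysis was possible because the oocyte numbers are not shared between genotypes and the labels name no animal. Limits are the 1 to 4 -/- oocytes behind each value, the absence of any mouse label, the stage taken from figures, index sets that each hold 1 genotype, and counts of 0 that allow up to 0.710 CPM in the shallowest library.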

Other observations

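Oocyte 61, a +/- NSN oocyte, had the highest *Inha* of its group (7.82 CPM) and *Gja1* at 6.60 CPM, with theca and interstitial markers that summed to 174 CPM against 126 in oocyte 15. *Cyp11a1*, the side-chain cleavage enzyme that starts steroid synthesis, was at 82.3 CPM and *Cyp17a1*, the androgen-forming enzyme of theca cells, at 59.0 CPM, against at most 17.1 and 27.4 in the other staged oocytes. Not every gene of that list was high. *Star* and *Gli1* were also above every other staged oocyte, and *Lhcgr* and *Fdxr* were above every +/+ oocyte only. *Insl3* had no count, and *Ptch1* was below its +/+ median. *Nr5a1*, a steroidogenic regulator, was at 10.1 CPM. *Foxl2*, *Amh*, *Fst*, *Inhba*, *Inhbb* and *Fshr* had no count in that oocyte, while *Amhr2* had 15 and *Wt1* had 7 counts.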
